A study of Mus musculus with 12 samples.

Results

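The genes of the proteasome were followed by RNA sequencing in bone marrow-derived macrophages, which are mouse bone marrow cells grown into macrophages, here for 6 days with L929-conditioned medium as the source of growth factor. The 12 libraries form 4 groups of 3: COQ6 D316Y homozygous cells given 100 ng/mL lipopolysaccharide (LPS) for 24 h, wild type (WT) cells given the same LPS, D316Y cells left unstimulated and WT cells left unstimulated. COQ6 is an enzyme of coenzyme Q synthesis, and LPS is a bacterial cell wall component that macrophages sense. The labels give no strain, sex or age of the mice. They also do not say if replicates are different mice or culture dishes, and a p-value here therefore reflects library-to-library spread, which may be technical. Members were the protein-coding genes whose symbol starts with Psma, Psmb, Psmc, Psmd, Psme, Psmf or Psmg and a digit, which gave 49 of the 12441 genes in the tables. Of these, 5 are interferon-inducible (Psmb8, Psmb9, Psmb10, Psme1 and Psme2) and 42 are constitutive subunits, activators, an inhibitor and assembly factors. The remaining pair are Psme2b, a near copy of Psme2, and Psmc3ip, a recombination cofactor that the symbol rule takes in although it is not a proteasome gene.

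The proteasome is the cell's main protease for ubiquitin-tagged proteins. Its 20S core is a barrel of α rings around β rings, and the β rings carry the catalytic subunits Psmb5, Psmb6 and Psmb7. The 19S cap, with a base of ATPases and a lid that removes ubiquitin, recognises and unfolds substrates. In cells exposed to interferon, and constantly in many immune cells, newly built cores take Psmb8, Psmb9 and Psmb10 in place of Psmb5, Psmb6 and Psmb7 to form the immunoproteasome, and the Psme1 and Psme2 products form the PA28αβ activator. Both changes are known for altering the peptides that reach MHC class I molecules.

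The promoters of 4 members are shown because they belong to genes that moved together with LPS and stand for an immunoproteasome subunit with and without a match to an interferon motif, a PA28 subunit and a constitutive catalytic subunit. Each window runs from 250 bases before to 50 after the RefSeq start site on GRCm38.p6, printed 5′ to 3′ on the gene's strand, and capitals mark matches to the GAS, interferon-stimulated and antioxidant motifs spelled out after the sequences. RefSeq start sites can lie elsewhere than those of the gene annotation used for distances. That annotation starts Psmb8 at 34197721, Psmb9 at 34187764 and Psme1 at 55578123. The windows of these genes therefore lie wholly downstream of the annotated start and do not cover the sequence before it. The annotated Psmb5 start, 54618022, lies within its window. The Psmb8 window is chr17:34197945-34198244, plus strand. The Psmb9 window is chr17:34187281-34187580, minus strand. The Psme1 window is chr14:55578244-55578543, plus strand. The Psmb5 window is chr14:54617946-54618245, minus strand.
Psmb8: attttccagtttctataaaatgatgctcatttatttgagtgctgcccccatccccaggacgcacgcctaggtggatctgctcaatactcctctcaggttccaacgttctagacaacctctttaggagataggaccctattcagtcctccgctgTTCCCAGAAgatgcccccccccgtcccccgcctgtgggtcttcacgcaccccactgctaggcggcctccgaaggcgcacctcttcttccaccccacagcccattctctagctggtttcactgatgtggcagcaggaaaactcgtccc
Psmb9: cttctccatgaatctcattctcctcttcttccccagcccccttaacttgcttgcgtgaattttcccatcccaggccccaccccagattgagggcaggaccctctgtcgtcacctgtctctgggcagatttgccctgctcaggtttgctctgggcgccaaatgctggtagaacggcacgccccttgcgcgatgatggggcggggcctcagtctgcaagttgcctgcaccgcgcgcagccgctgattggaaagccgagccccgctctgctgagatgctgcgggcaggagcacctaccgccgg
Psme1: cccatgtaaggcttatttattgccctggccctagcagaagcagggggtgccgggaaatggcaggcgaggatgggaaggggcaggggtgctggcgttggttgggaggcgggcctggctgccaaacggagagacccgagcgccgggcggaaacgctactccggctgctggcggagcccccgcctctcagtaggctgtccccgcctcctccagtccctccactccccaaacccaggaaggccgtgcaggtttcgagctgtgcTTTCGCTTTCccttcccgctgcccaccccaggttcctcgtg
Psmb5: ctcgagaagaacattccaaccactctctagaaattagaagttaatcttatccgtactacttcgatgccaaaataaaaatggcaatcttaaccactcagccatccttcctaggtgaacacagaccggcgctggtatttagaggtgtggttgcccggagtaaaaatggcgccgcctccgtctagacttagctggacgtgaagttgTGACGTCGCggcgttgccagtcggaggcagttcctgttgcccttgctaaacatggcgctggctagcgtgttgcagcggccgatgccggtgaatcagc

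The motifs were searched as letters on both strands, with N for any base. Positions are counted from the RefSeq start, not from the annotated one. The GAS element TTCNNNGAA, a sequence found at interferon-responsive genes, occurred in the Psmb8 window as TTCCCAGAA, 97 bases before the start. The interferon-stimulated response element core, GAAA, any 2 bases and GAAA, occurred in the Psme1 window as TTTCGCTTTC, its reverse strand, 10 bases after the start. The antioxidant response core TGACNNNGC occurred in the Psmb5 window as TGACGTCGC, 47 bases before the start, and none of these motifs occurred in the Psmb9 window. RefSeq gave a promoter for 41 of the 49 members. The interferon-stimulated core was in 5 of them (12.2%; Psmb3, Psmd4, Psmd9, Psme1 and Psmg4), against 4.00% of the promoters of 26742 genes. GAS was in 3 (7.32%; Psmb8, Psmd2 and Psmg1) against 9.60% of all. The antioxidant core was in 6 (14.6%; Psmb5, Psmb6, Psmc6, Psmd12, Psmd9 and Psme4) against 14.0% of all, and the NF-κB letters, GGGA, any base and TTTCC, were in 0, against 0.471% of all. The CCAAT box was in 14 (34.1%), Psmb9 among them, against 41.0% of all. Overlaps between motifs were not removed, and a match only says that the letters are present. In the gene annotation, the start sites of Psmb9 and of Tap1, the peptide transporter gene, lie 211 bases apart on opposite strands of chromosome 17, with Psmb8 starting 9957 bases from Psmb9. Most of the interval between the Psmb9 and Tap1 starts lies outside the Psmb9 window searched.

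Depth was 32.77 to 47.18 M reads in the listed genes per library. All 10 macrophage markers looked for, such as Adgre1 and Csf1r, were measured, and their summed level was 54968 to 70847 CPM, which is reads scaled to the library total, with LPS and 32625 to 39509 CPM unstimulated. The lysozyme gene Lyz2 alone made up 80.3% to 88% of that sum with LPS and 71.1% to 84.2% unstimulated. In the test given below, 5 of the 10 markers rose with LPS (50%), 2 fell (20%) and 3 did not pass in each genotype. Of all genes tested, 19.4% rose and 19% fell in D316Y, and 18.1% rose and 19% fell in WT. Of 14 B and T lymphocyte markers, 2 were measured, summing to 8.24 to 12.6 CPM with LPS and 9.52 to 16.8 CPM unstimulated. The 6 neutrophil markers measured, of 13 listed, summed to 187 to 227 CPM with LPS and 66.7 to 87.9 CPM unstimulated, and the 6 dendritic cell markers of 9 to 27.2 to 42.1 CPM with LPS and 42.3 to 101 CPM unstimulated. Neutrophil markers moved both ways. In D316Y 3 of 6 tested rose (50%) and 1 fell (16.7%), and in WT 3 of 5 rose (60%) and 1 fell (20%). Dendritic cell markers did so too. In D316Y 2 of 6 tested rose (33.3%) and 3 fell (50%), and in WT 1 of 5 rose (20%) and 3 fell (60%). The 7 monocyte and progenitor markers of 8 summed to 415 to 477 CPM with LPS and 297 to 375 CPM unstimulated. Ly6c2 was 153 to 219 CPM of that sum with LPS and 0.678 to 1.65 CPM unstimulated. Of these markers 3 of the 6 tested fell in D316Y (50%) and 4 of the 7 in WT (57.1%). Those risen were 2 in each genotype, or 33.3% in D316Y and 28.6% in WT. The 3 fibroblast markers of 7 summed to 2.96 to 4.92 CPM with LPS and 0.516 to 2.55 CPM unstimulated, and of 6 erythroid and megakaryocyte markers Pf4 was measured, at 182 to 236 CPM with LPS and 81.6 to 122 CPM unstimulated. Ly6g and Mpo, which define neutrophils and their precursors, and Cd3e, which defines T lymphocytes, were among the markers with no row. Their part in the LPS differences below was not tested, and in bulk RNA fewer cells of a type and less RNA per cell cannot be told apart. Both replicate 1 libraries of the unstimulated cells stood apart, with 0.449% to 0.949% of reads in mitochondrially encoded genes. The other 4 unstimulated libraries had 1.97% to 2.97% and the LPS libraries 0.658% to 1.10%. Ribosomal protein genes took 3.18% to 4.67% of reads in this pair, 6.59% to 8.39% in the other 4 and 3.44% to 4.71% with LPS. Results are also given without this pair. These shares then separate the treatments fully, so that share and treatment cannot be told apart.

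LPS raised proteasome RNA broadly in both genotypes. Members were tested with limma on the deposited log2 CPM, calling an adjusted p (Benjamini-Hochberg over all genes tested) under 0.05, and a gene entered the test where at least 1 compared group averaged 0 log2 CPM or more, as 48 of the 49 did. The one left out was Psma8, a testis-type α subunit. With LPS, 30 of 48 members rose and 1 fell in D316Y cells, where 19.4% of the 11795 genes tested rose and 19% fell. In WT cells 34 of 48 rose and 2 fell, where 18.1% of 11663 rose and 19% fell. The median member differed by 0.55 log2 in D316Y and 0.61 in WT, against -0.026 and -0.0056 for all genes tested in the same comparisons. Without both unstimulated replicate 1 libraries, 38 rose and 1 fell in D316Y cells, and 40 rose and 2 fell in WT cells. Under quantile normalization, which forces all libraries onto the same distribution, 20 rose in D316Y cells and 24 in WT cells. Libraries with LPS were all above the unstimulated ones for 37 members in D316Y, where 26.7% of all genes did so, and for 38 members in WT, where 22.9% did.

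**Figure D1:**
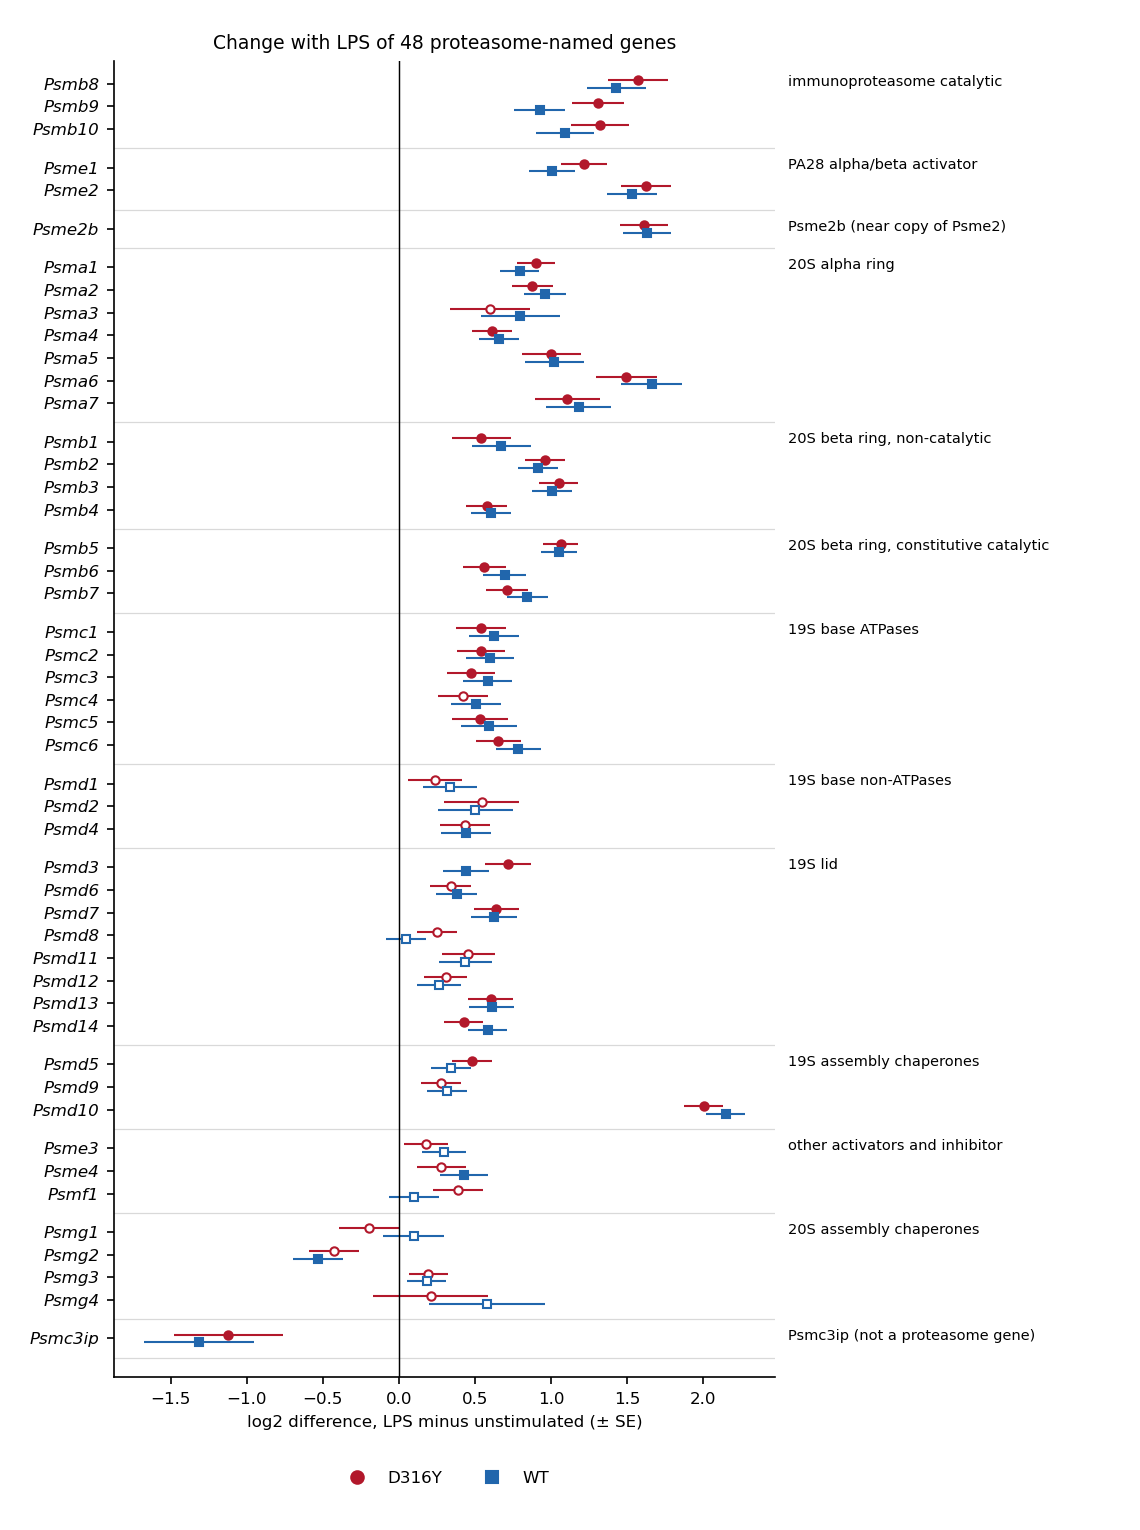
LPS minus unstimulated log2 difference (horizontal axis) of the 48 tested members, grouped by role down the page, in D316Y (red circles) and WT (blue squares) macrophages. Filled symbols passed the test, open ones did not, and bars are the limma standard error; Psmd10 lies farthest right at 2.00 in D316Y and 2.15 in WT, and Psmc3ip farthest left.

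The 5 interferon-inducible members all rose in both genotypes, with a median of 1.32 in D316Y and 1.09 in WT. Psmb8, the chymotrypsin-like subunit of the immunoproteasome, stood at 8.17, 8.18 and 7.92 log2 CPM in D316Y libraries with LPS, against 6.69, 6.15 and 6.71 in unstimulated D316Y libraries. The WT values were 8.22, 8.41 and 8.36 log2 CPM with LPS, against 7.31, 6.60 and 6.79 unstimulated. Every LPS library lay above every unstimulated one, and the highest unstimulated value was that of WT replicate 1. The difference was 1.57 (SE 0.20, limma adjusted p = 2.9e-05) in D316Y, or 2.97-fold, and 1.43 (SE 0.20, adjusted p = 7.26e-05) in WT, or 2.69-fold.

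Psmb9, which takes the place of the caspase-like Psmb6, stood at 7.69, 7.64 and 7.34 log2 CPM in D316Y with LPS, against 6.17, 6.07 and 6.50 in unstimulated D316Y. WT libraries held it at 7.25, 7.69 and 7.56 with LPS, against 6.80, 6.41 and 6.52 unstimulated. The treatment groups did not overlap, with WT replicate 1 the highest unstimulated library and the lowest LPS library. Psmb9 rose by 1.31 (SE 0.17, limma adjusted p = 4.02e-05) in D316Y and by 0.92 (SE 0.17, adjusted p = 0.000764) in WT. Psmb10, the trypsin-like replacement for Psmb7, stood at 8.59, 8.67 and 8.34 log2 CPM in D316Y with LPS, against 7.43, 6.88 and 7.32 in unstimulated D316Y. In WT the values were 8.52, 8.71 and 8.63 with LPS, against 7.90, 7.24 and 7.44 unstimulated. Its groups did not overlap either, and it rose by 1.32 (SE 0.19) in D316Y and by 1.09 (SE 0.19) in WT, with limma adjusted p of 9.72e-05 in D316Y and 0.000504 in WT.

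Psme1, the α subunit of the PA28αβ activator, stood at 8.47, 8.49 and 8.32 log2 CPM in D316Y with LPS, against 7.23, 7.01 and 7.37 in unstimulated D316Y, and rose by 1.22 (SE 0.15, limma adjusted p = 2.56e-05). In WT it was at 8.29, 8.61 and 8.44 with LPS, against 7.64, 7.28 and 7.40 unstimulated, and rose by 1.01 (SE 0.15, adjusted p = 0.000145). Every LPS library was above every unstimulated one. Psme2, the β subunit, stood at 9.67, 9.60 and 9.56 log2 CPM in D316Y with LPS, against 7.83, 7.93 and 8.20 in unstimulated D316Y. In WT it stood at 9.36, 9.87 and 9.61 with LPS, against 7.91, 8.20 and 8.13 unstimulated. Those groups lay more than a log2 unit apart, and the rise was 1.63 (SE 0.16) in D316Y and 1.53 (SE 0.16) in WT, with limma adjusted p of 4.23e-06 in D316Y and 8.22e-06 in WT. Psme2b rose by 1.61 in D316Y and 1.63 in WT, but 68.7% of its 50-base stretches are also in Psme2, so reads of the pair may have been split or shared. Psme2b minus Psme2 was -2.95 to -2.71 log2 units over the 12 libraries.

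**Figure D2:**
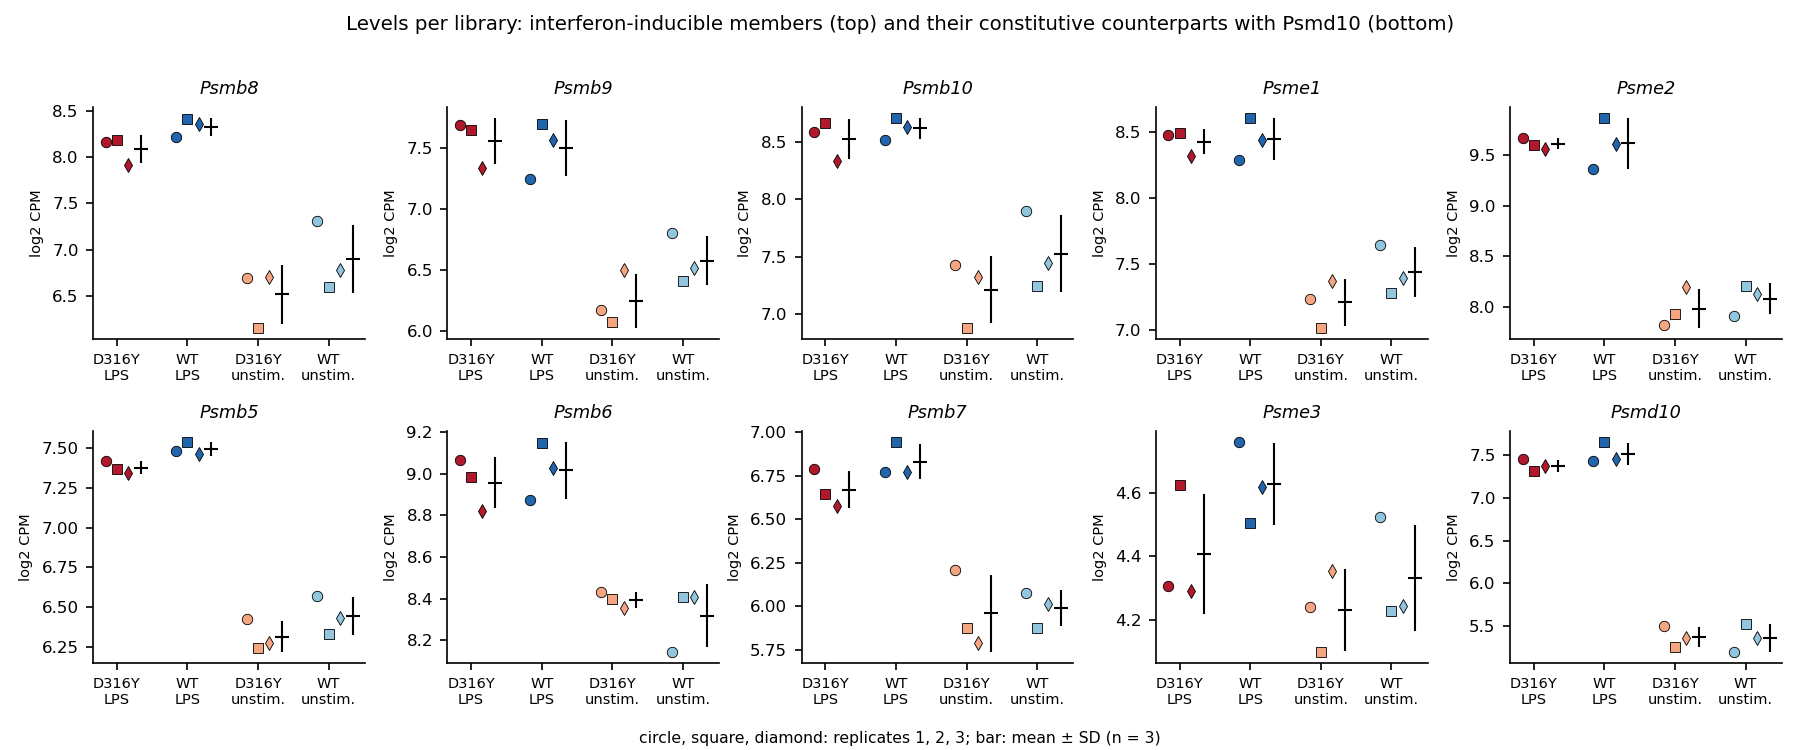
Level in log2 CPM (vertical axes) of the 5 interferon-inducible members in the top row and of Psmb5, Psmb6, Psmb7, Psme3 and Psmd10 in the bottom row, per library, in D316Y with LPS, WT with LPS, D316Y unstimulated and WT unstimulated. Circles, squares and diamonds are replicates 1, 2 and 3 and bars are mean ± SD (n = 3); the LPS and unstimulated libraries overlap for Psme3 and for none of the other 9 genes.

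The constitutive catalytic subunits also rose, all 3 in both genotypes. Psmb5, the counterpart of Psmb8, stood at 7.42, 7.37 and 7.34 log2 CPM in D316Y with LPS, against 6.43, 6.24 and 6.28 in unstimulated D316Y. The WT values were 7.48, 7.54 and 7.46 with LPS, against 6.57, 6.33 and 6.43 unstimulated. The spread within each group was small beside the rise of 1.06 (SE 0.12, limma adjusted p = 9.37e-06) in D316Y and 1.05 (SE 0.12, adjusted p = 1.15e-05) in WT. Of the 50-base stretches of Psmb5, 57.1% recur in other annotated genes, most of them in 1 copy, so its level is less certain than that of most members. The same limit applies to Psme2 (59.3%), Psmb3 (55.8%) and Psma5 (54.45%). Psmb6, the caspase-like subunit, stood at 9.07, 8.98 and 8.82 log2 CPM in D316Y with LPS, against 8.43, 8.40 and 8.35 in unstimulated D316Y. WT libraries held it at 8.87, 9.15 and 9.03 with LPS, against 8.14, 8.41 and 8.41 unstimulated. Psmb6 rose by 0.56 (SE 0.14, limma adjusted p = 0.00604) in D316Y and by 0.70 (SE 0.14, adjusted p = 0.00152) in WT, without overlap. Under quantile normalization its D316Y difference was 0.26 with an adjusted p of 0.161. Psmb7, the trypsin-like subunit, stood at 6.79, 6.64 and 6.58 log2 CPM in D316Y with LPS, against 6.21, 5.88 and 5.79 in unstimulated D316Y. In WT it was at 6.77, 6.95 and 6.77 with LPS, against 6.08, 5.87 and 6.01 unstimulated. It rose by 0.71 (SE 0.14) in D316Y and 0.84 (SE 0.14) in WT, with limma adjusted p of 0.000942 in D316Y and 0.000271 in WT.

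Because each immunoproteasome subunit replaces 1 constitutive one, their log2 ratio was taken within every library. Psme1 and Psme2 were set against Psme3, a relative that is not part of PA28αβ. The ratios were compared with exact two-sided permutation tests over samples, stratified by genotype for LPS and by treatment for genotype (10 tests, Benjamini-Hochberg adjusted, smallest possible p = 0.005). All 5 ratios were higher with LPS. A ratio shifts by the rise of the subunit less that of its counterpart. The 3 catalytic pairs, whose counterparts also rose, therefore had to shift by less than the subunits themselves. The log2 ratio of Psmb8 over Psmb5 was 0.75, 0.81 and 0.57 in D316Y with LPS, against 0.26, -0.090 and 0.43 in unstimulated D316Y. In WT it was 0.74, 0.87 and 0.90 with LPS, against 0.75, 0.27 and 0.36 unstimulated. The D316Y groups did not overlap, whereas unstimulated WT replicate 1 lay within the LPS values. The mean shift was 0.44, or 1.36-fold (exact permutation p = 0.01, adjusted p = 0.0333), with 0.51 in D316Y and 0.38 in WT.

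For Psmb9 over Psmb6 the log2 ratio was -1.38, -1.34 and -1.49 in D316Y with LPS, against -2.26, -2.33 and -1.86 in unstimulated D316Y. In WT it was -1.63, -1.45 and -1.47 with LPS, against -1.34, -2.00 and -1.89 unstimulated. The unstimulated WT replicate 1 ratio was above all 3 WT ratios with LPS, while the D316Y groups were separate. The mean shift was 0.49 (exact permutation p = 0.02, adjusted p = 0.04), made of 0.75 in D316Y and 0.23 in WT. For Psmb10 over Psmb7 it was 0.43 (exact permutation p = 0.015, adjusted p = 0.0375), with 0.61 in D316Y and 0.25 in WT, and unstimulated WT replicate 1 again lay among the WT values with LPS. These 3 tests were lost when single libraries were left out, 5 of 12 for Psmb8 over Psmb5, 9 for Psmb9 over Psmb6 and 7 for Psmb10 over Psmb7, with adjusted p of up to 0.0667 for Psmb8 over Psmb5 and 0.08 for the other 2. Without both unstimulated replicate 1 libraries the shifts were 0.53 for Psmb8 over Psmb5, 0.56 for Psmb9 over Psmb6 and 0.49 for Psmb10 over Psmb7, each with an adjusted p of 0.02.

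Per length of the principal transcript, Psmb8 made up 47.5% ± 2.13 of the summed Psmb8 and Psmb5 RNA in D316Y with LPS and 38.9% ± 4.37 in unstimulated D316Y (SD, n = 3 each). In WT the share was 49.6% ± 1.45 with LPS and 43.2% ± 4.33 unstimulated (SD, n = 3 each). With the length of all annotated exons instead, the Psmb8 share came to 30.3% in D316Y with LPS and 23.5% in unstimulated D316Y, so the absolute shares depend on the length used. Psmb9 made up 18.3% ± 0.786 of the Psmb9 and Psmb6 sum in D316Y with LPS, against 11.8% ± 1.89 in unstimulated D316Y (SD, n = 3 each). Its WT share was 17.1% ± 0.931 with LPS, against 15.2% ± 3.24 unstimulated (SD, n = 3 each). Psmb10 held the larger share of its pair in every group, at 76.2% ± 1.74 in D316Y with LPS, against 67.7% ± 4.01 in unstimulated D316Y (SD, n = 3 each). In WT its share came to 75.4% ± 0.823 with LPS, against 71.9% ± 3.33 unstimulated (SD, n = 3 each). All 3 immunoproteasome subunits had RNA in unstimulated cells of both genotypes.

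**Figure D3:**
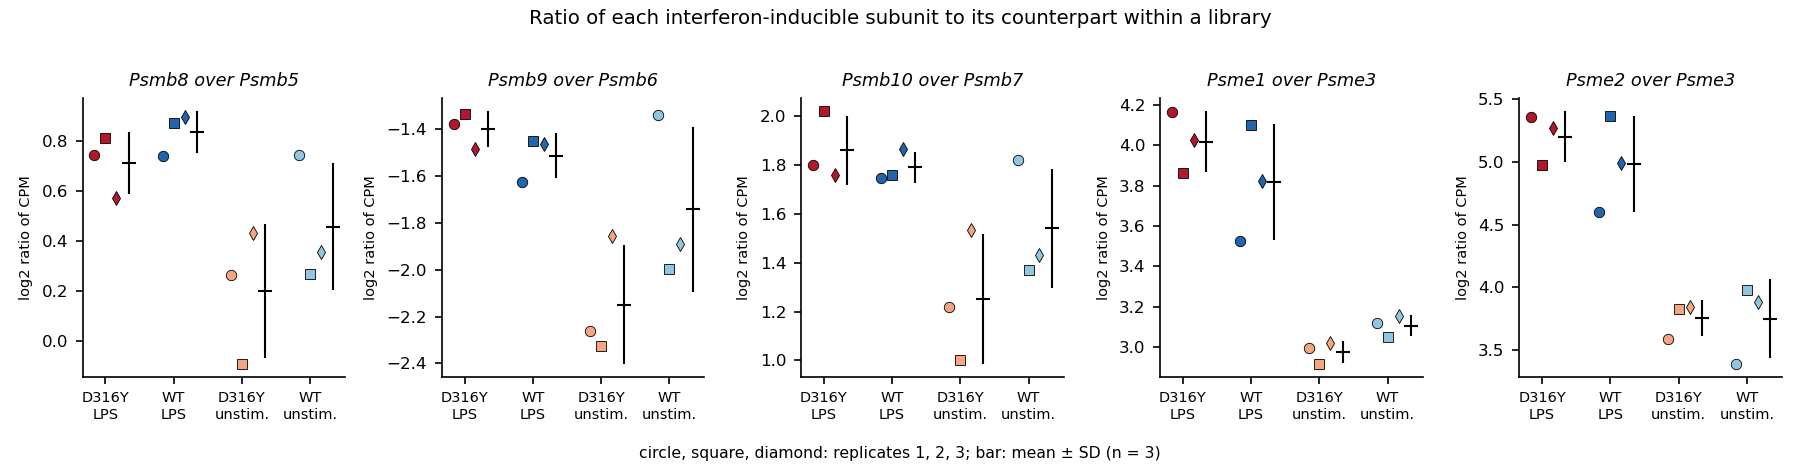
Log2 ratio of CPM (vertical axes) within a library, in D316Y with LPS, WT with LPS, D316Y unstimulated and WT unstimulated. Psmb8, Psmb9 and Psmb10 are set against the constitutive subunit each replaces, and Psme1 and Psme2 against Psme3. Symbols are replicates 1, 2 and 3 and bars are mean ± SD (n = 3). The ratios over Psme3 separate the treatments in both genotypes, whereas in the 3 catalytic pairs unstimulated WT replicate 1 (pale blue circle) reaches the LPS values.

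Psme3 encodes PA28γ, the nuclear relative of PA28αβ that is not interferon-inducible, and it did not pass the test in either genotype. It stood at 4.31, 4.62 and 4.29 log2 CPM in D316Y with LPS, against 4.24, 4.10 and 4.35 in unstimulated D316Y, a difference of 0.18 (SE 0.14, limma adjusted p = 0.363). In WT it stood at 4.76, 4.50 and 4.62 with LPS, against 4.52, 4.23 and 4.24 unstimulated, a difference of 0.29 (SE 0.14, adjusted p = 0.127). Without both unstimulated replicate 1 libraries the WT difference was 0.39 with an adjusted p of 0.0481. The log2 ratio of Psme1 over Psme3 shifted by 0.88 and that of Psme2 over Psme3 by 1.34 with LPS (exact permutation p = 0.005, the smallest possible, and adjusted p = 0.025 for both), and all LPS ratios were above all unstimulated ones. Of the other regulators, Psme4, the PA200 activator, differed by 0.28 (limma adjusted p = 0.19) in D316Y and rose by 0.43 (adjusted p = 0.0492) in WT, a call that held in 5 of 15 alternatives and with 1 of 6 libraries left out, with adjusted p of up to 0.161. Psmf1, the PI31 protein first described as an inhibitor, did not pass, at 0.39 in D316Y and 0.098 in WT.

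Within the 20S core, 13 of 14 constitutive members rose in D316Y and 14 of 14 in WT, with medians of 0.89 and 0.88. In the α ring, whose tails gate the barrel, 6 of 7 tested members rose in D316Y and 7 of 7 in WT, and Psma3 was the one that did not pass in D316Y, at 0.60 (limma adjusted p = 0.0898). Psma6 stood at 9.15, 9.04 and 9.16 log2 CPM in D316Y with LPS, against 7.35, 7.71 and 7.81 in unstimulated D316Y. The WT values were 8.97, 9.47 and 9.14 with LPS, against 7.10, 7.84 and 7.65 unstimulated. Its rise of 1.50 (SE 0.20, limma adjusted p = 5.84e-05) in D316Y and 1.66 (SE 0.20, adjusted p = 2.77e-05) in WT was the largest of the core. Psma7 rose by 1.11 in D316Y and 1.18 in WT. All 4 non-catalytic β subunits rose in both genotypes, from 0.54 for Psmb1 to 1.05 for Psmb3 in D316Y, and from 0.61 for Psmb4 to 1.01 for Psmb3 in WT. The Psmb1 call in D316Y (limma adjusted p = 0.0383) was lost under quantile normalization, at 0.23 (adjusted p = 0.391), and without any D316Y LPS library or D316Y unstimulated replicate 1, with adjusted p of up to 0.131.

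Differences in the 19S cap were smaller, with 9 of 17 members risen in D316Y and 12 of 17 in WT, none fallen, and medians of 0.47 and 0.51. These counts rested on single libraries. In D316Y 4 rose without LPS replicate 2, unstimulated replicate 2 or unstimulated replicate 3, 5 without LPS replicate 1 and 15 without unstimulated replicate 1. In WT 6 rose without unstimulated replicate 2, and 7 without LPS replicate 1 or unstimulated replicate 3. Under quantile normalization 3 cap members rose in D316Y and 4 in WT, and of the 14 core members 9 rose in D316Y and 12 in WT. With 1 library left out, 12 to 13 core members rose in D316Y and 12 to 14 in WT. Among the base ATPases, which unfold substrates, 5 of 6 rose in D316Y and 6 of 6 in WT, the strongest being Psmc6 at 0.65 in D316Y and 0.79 in WT. The 3 non-ATPase base members include the scaffold subunits Psmd1 and Psmd2 and the ubiquitin receptor Psmd4. Of these 0 passed in D316Y, and Psmd4 alone passed in WT, at 0.44 (limma adjusted p = 0.0489). That call held in 6 of 15 alternatives and with 1 of 6 libraries left out. Its limma adjusted p was up to 0.291 over the alternatives and up to 0.213 with 1 library left out. In the lid, 4 of 8 rose in D316Y and 5 of 8 in WT, and Psmd14, the subunit that cuts ubiquitin chains off substrates, rose by 0.43 in D316Y and 0.58 in WT. Its D316Y call was lost under quantile normalization, at 0.14 (limma adjusted p = 0.408), and without D316Y LPS replicate 1 or 2 or D316Y unstimulated replicate 2 or 3, with adjusted p of up to 0.067. The median level of the 14 core members minus that of the 17 cap members was 1.38, 1.35 and 1.20 log2 in D316Y with LPS, against 0.46, 0.95 and 1.00 in unstimulated D316Y. In WT it was 1.05, 1.32 and 1.21 with LPS, against 0.33, 0.96 and 0.85 unstimulated. The LPS libraries were above the unstimulated ones in both genotypes, and the unstimulated replicate 1 libraries were the lowest of all 12, as they were in mitochondrial share among the unstimulated libraries, a relation that was not tested. Without them the D316Y cap median was 0.63 and the core median 0.84, and under quantile normalization the medians were 0.18 for the cap and 0.55 for the core in D316Y, and 0.28 and 0.62 in WT.

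**Figure D4:**
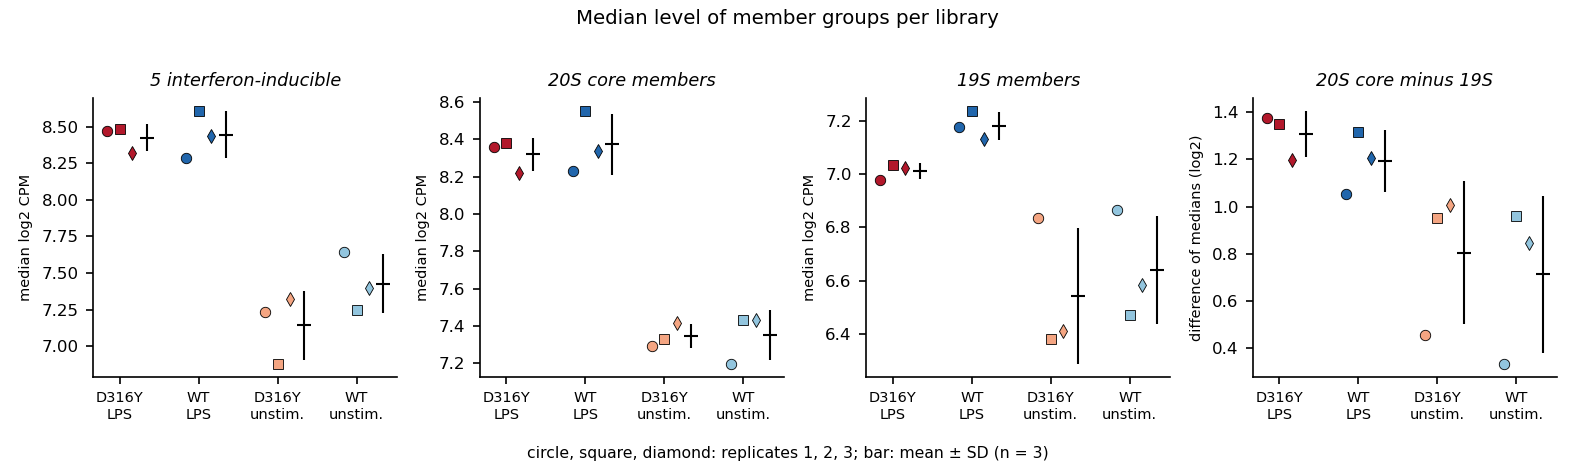
Median log2 CPM per library of the 5 interferon-inducible members, the 14 constitutive 20S core members and the 17 members of the 19S cap, and the core minus cap difference (log2), in D316Y with LPS, WT with LPS, D316Y unstimulated and WT unstimulated. Circles, squares and diamonds are replicates 1, 2 and 3 and bars are mean ± SD (n = 3); the pale circles, unstimulated replicate 1, are the highest unstimulated libraries for the cap and the lowest for the core.

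Psmd10, which encodes gankyrin, an assembly chaperone of the 19S base, had the largest difference of all tested members. It stood at 7.45, 7.31 and 7.37 log2 CPM in D316Y with LPS, against 5.50, 5.26 and 5.36 in unstimulated D316Y. WT libraries held it at 7.43, 7.66 and 7.45 with LPS, against 5.20, 5.53 and 5.37 unstimulated. The lowest LPS library lay well above the highest unstimulated one, and the rise was 2.00 (SE 0.13, limma adjusted p = 6.72e-08) in D316Y, or 4.01-fold, and 2.15 (SE 0.13, adjusted p = 3.63e-08) in WT, or 4.43-fold. The other 19S chaperones moved less: Psmd5 rose by 0.48 in D316Y and stood at 0.34 (limma adjusted p = 0.0591) in WT, and Psmd9 passed in neither. None of the 4 chaperones of the 20S core rose. Psmg2 differed by -0.43 (limma adjusted p = 0.0545) in D316Y and fell by 0.53 (SE 0.16, adjusted p = 0.0203) in WT, and its WT call was lost (adjusted p of 0.0587 to 0.0959) without WT LPS replicate 3, WT unstimulated replicate 1 or WT unstimulated replicate 3. Psmc3ip fell by 1.12 (SE 0.36, limma adjusted p = 0.0243) in D316Y and by 1.32 (SE 0.36, adjusted p = 0.011) in WT, and its D316Y call was lost without D316Y LPS replicate 2, D316Y LPS replicate 3 or D316Y unstimulated replicate 3, at adjusted p of 0.0561 to 0.0988.

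With LPS, 29 members rose in both genotypes and Psmc3ip fell in both. Psmd5 passed in D316Y only, and Psma3, Psmc4, Psmd4, Psmd6, Psme4 and Psmg2 passed in WT only, but the test of the difference itself, below, called none of them. Per length of the principal transcript, Psme2 ranked first with LPS in both genotypes, at 812 ± 30.3 CPM per kb in D316Y with LPS and 265 ± 35.8 in unstimulated D316Y (SD, n = 3 each), and the next member, Psma7, was at 799 ± 24.4 in D316Y with LPS, with overlapping libraries. Psmb6 ranked first of the 49 in the unstimulated cells of both genotypes, at 422 ± 11.2 CPM per kb in D316Y and 402 ± 40.8 in WT (SD, n = 3 each), ahead of Psma7, at 373 ± 52.2 in D316Y and 361 ± 94.7 in WT, and the libraries of these neighbours overlapped in WT but not in D316Y. By the length of all annotated exons Psma6 was first with LPS in both genotypes and Psme2 ranked 2, Psmb6 was again first in unstimulated cells, and Psma7 ranked 6 or 7. Psmd10 ranked 21 of 49 with LPS in both genotypes, and 37 in unstimulated D316Y and 38 in unstimulated WT. By exon length it ranked 13 in D316Y with LPS, against 29 in unstimulated D316Y. Its rank in WT was 12 with LPS, against 31 unstimulated. Psma8 was last in every group.

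Genes around the proteasome were counted in lists. Of 16 measured partners outside the name rule, 3 rose (18.8%) and 4 fell (25%) in D316Y, and 4 rose and 3 fell in WT, shares near the 19.4% risen and 19% fallen among all genes in D316Y and the 18.1% and 19% in WT. They included the ubiquitin receptor Adrm1 (0.65 in D316Y and 0.41 in WT), the shuttle factor Rad23b (0.47 in D316Y and 0.46 in WT), and the core maturation factor Pomp (0.40 in D316Y and 0.47 in WT), which rose in both. The cap-bound deubiquitinases Usp14 (-0.60 in D316Y and -0.55 in WT) and Uchl5 (-0.51 in D316Y and -0.52 in WT) fell in both. Of 12 known regulators of proteasome genes, 5 rose (41.7%) and 2 fell (16.7%) in D316Y, and 3 rose (25%) and 2 fell (16.7%) in WT, so that the WT shares and the D316Y share fallen were near those of all genes. Nfe2l1, the factor that raises proteasome genes when the protease is inhibited, rose by 1.09 in D316Y and 0.83 in WT, whereas Ddi2, the protease that activates its product, stood at -0.96 in D316Y and -0.76 in WT and fell in both. Mafg, a small partner of such factors, rose by 0.93 in D316Y and 0.76 in WT, and Bach1, a repressor at antioxidant elements, fell in both, at -0.93 in D316Y and -0.71 in WT.

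Of 15 genes measured on the interferon route to immunoproteasome genes, 10 rose (66.7%) and 1 fell (6.67%) in D316Y. In WT 9 rose (60%) and 1 fell (6.67%). Of all genes tested, 19.4% rose and 19% fell in D316Y, and 18.1% rose and 19% fell in WT. Ifnb1, the interferon β gene, rose by 4.41 in D316Y and 4.13 in WT, and the kinase gene Jak2 by 2.94 in D316Y and 2.73 in WT. Of 11 genes of class I peptide presentation, 8 rose (72.7%) and 0 fell in each genotype. Those risen include Tap1 (1.74 in D316Y and 1.16 in WT), the neighbour of Psmb9, and the class I chain H2-K1 (1.64 in D316Y and 1.39 in WT). Of 6 ubiquitin supply genes, 2 rose (33.3%) and 1 fell (16.7%) in D316Y, and 1 rose and 1 fell in WT (16.7% each way). The WT shares and the D316Y share fallen were near those of all genes. The polyubiquitin gene Ubb rose by 0.94 in D316Y and 0.81 in WT. The activating enzyme Uba6 fell in both, at -1.06 in D316Y and -0.96 in WT.

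No member passed the test of D316Y against WT macrophages, with or without LPS, and the differences ran from -0.31 to 0.30 with LPS and from -0.49 to 0.37 unstimulated. The 0.30 was that of Psmc3ip, which is not a proteasome gene. Among the other members the highest difference with LPS was 0.095, for Psma1. With LPS, 0 of 48 members passed where 0.0442% of 11306 genes were called, and 0 had an unadjusted p under 0.05, where 6.5% of all genes did. The members' median difference, D316Y minus WT, was -0.068, with 38 of 48 negative. For all genes it was -0.0033, with 5738 of 11306 negative. Members share the same libraries, so a count of signs does not add up independent results. Without WT LPS replicate 2 the median was -0.0051 with 24 negative, and that of the core was 0.044, against -0.060 with this library. The median of the 17 cap members was -0.16 without this library and -0.14 with it. For all members the median was -0.13 without WT LPS replicate 1 and -0.038 without D316Y LPS replicate 3. D316Y libraries were all below WT ones for 11 members, where 6.79% of all genes were so, and above for 0, where 5.7% were. Of the 11, 9 were among the 17 cap members (Psmc1, Psmc2, Psmc3, Psmc5, Psmd3, Psmd4, Psmd7, Psmd12 and Psmd13), whose median difference was -0.14 with 16 negative, and the others were Psmb8 and Psmb5. The members with the smallest unadjusted p were Psmb8, at -0.24 (SE 0.13, 95% interval -0.52 to 0.031, limma adjusted p = 0.803), and the lid subunit Psmd3, at -0.22 (SE 0.12, interval -0.48 to 0.041, adjusted p = 0.813). These intervals include 0.

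Unstimulated, 0 of 48 members passed where 0.00868% of 11525 genes were called. Of the 48 differences 34 were negative, where 6198 of 11525 genes were, and the median was -0.053 against -0.021 for all genes. Leaving out D316Y replicate 2 gave a median of 0.0084, leaving out D316Y replicate 3 gave -0.029, and leaving out D316Y replicate 1 or WT replicate 2 gave -0.12. All 5 interferon-inducible members were lower on average in D316Y, and none passed. Psmb8 was at -0.38 (SE 0.24, 95% interval -0.93 to 0.17), Psmb9 at -0.33 (interval -0.75 to 0.089), Psmb10 at -0.32 (interval -0.85 to 0.22), Psme1 at -0.23 (interval -0.65 to 0.19) and Psme2 at -0.099 (interval -0.53 to 0.33), with limma adjusted p from 0.942 upward. Their D316Y and WT libraries overlapped, as the levels given above show. No label says that same-numbered libraries are pairs, and treating them so was a choice made from these data. Between same-numbered libraries, D316Y minus WT was -0.63, -0.45 and -0.076 for Psmb8 and -0.63, -0.34 and -0.020 for Psmb9. It was -0.47, -0.37 and -0.12 for Psmb10 and -0.41, -0.26 and -0.023 for Psme1. Each of these genes was lower in D316Y in 3 of 3, and Psme2 in 2 of 3. The genes share their libraries and are not separate evidence. With the replicate number as a block the limma adjusted p was 0.165 for Psmb8, 0.22 for Psmb9, 0.166 for Psmb10 and 0.274 for Psme1, so none passed. Without both unstimulated replicate 1 libraries the median of the 5 was -0.18, against -0.32 with them. Psmd3 had the smallest unadjusted p (0.0277), at 4.28, 4.04 and 4.45 log2 CPM in D316Y, against 5.02, 4.50 and 4.72 in WT, a difference of -0.49 (SE 0.18, limma adjusted p = 0.942, or 0.135 with the replicate block). It was the one member of 48 with an unadjusted p under 0.05, where 2.92% of all genes had one, and D316Y libraries were all below WT ones for Psmd3 and Psmb2, where 5.18% of all genes were so, and all above for 0, where 2.95% were. In the authors' deposited table, 0 members had an adjusted p under 0.05 in either comparison. Unadjusted, 7 members had a p under 0.05 at rest in the authors' deposited table, all lower in D316Y, among them Psmd3 at -0.44 and Psmb8 at -0.32, where that table gives such a p for 16.5% of its genes and such a p with a lower level for 7.64%. With LPS 1 member did in the authors' deposited table, Psmc3 at -0.19, where 12.2% of its genes did.

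**Figure D5:**
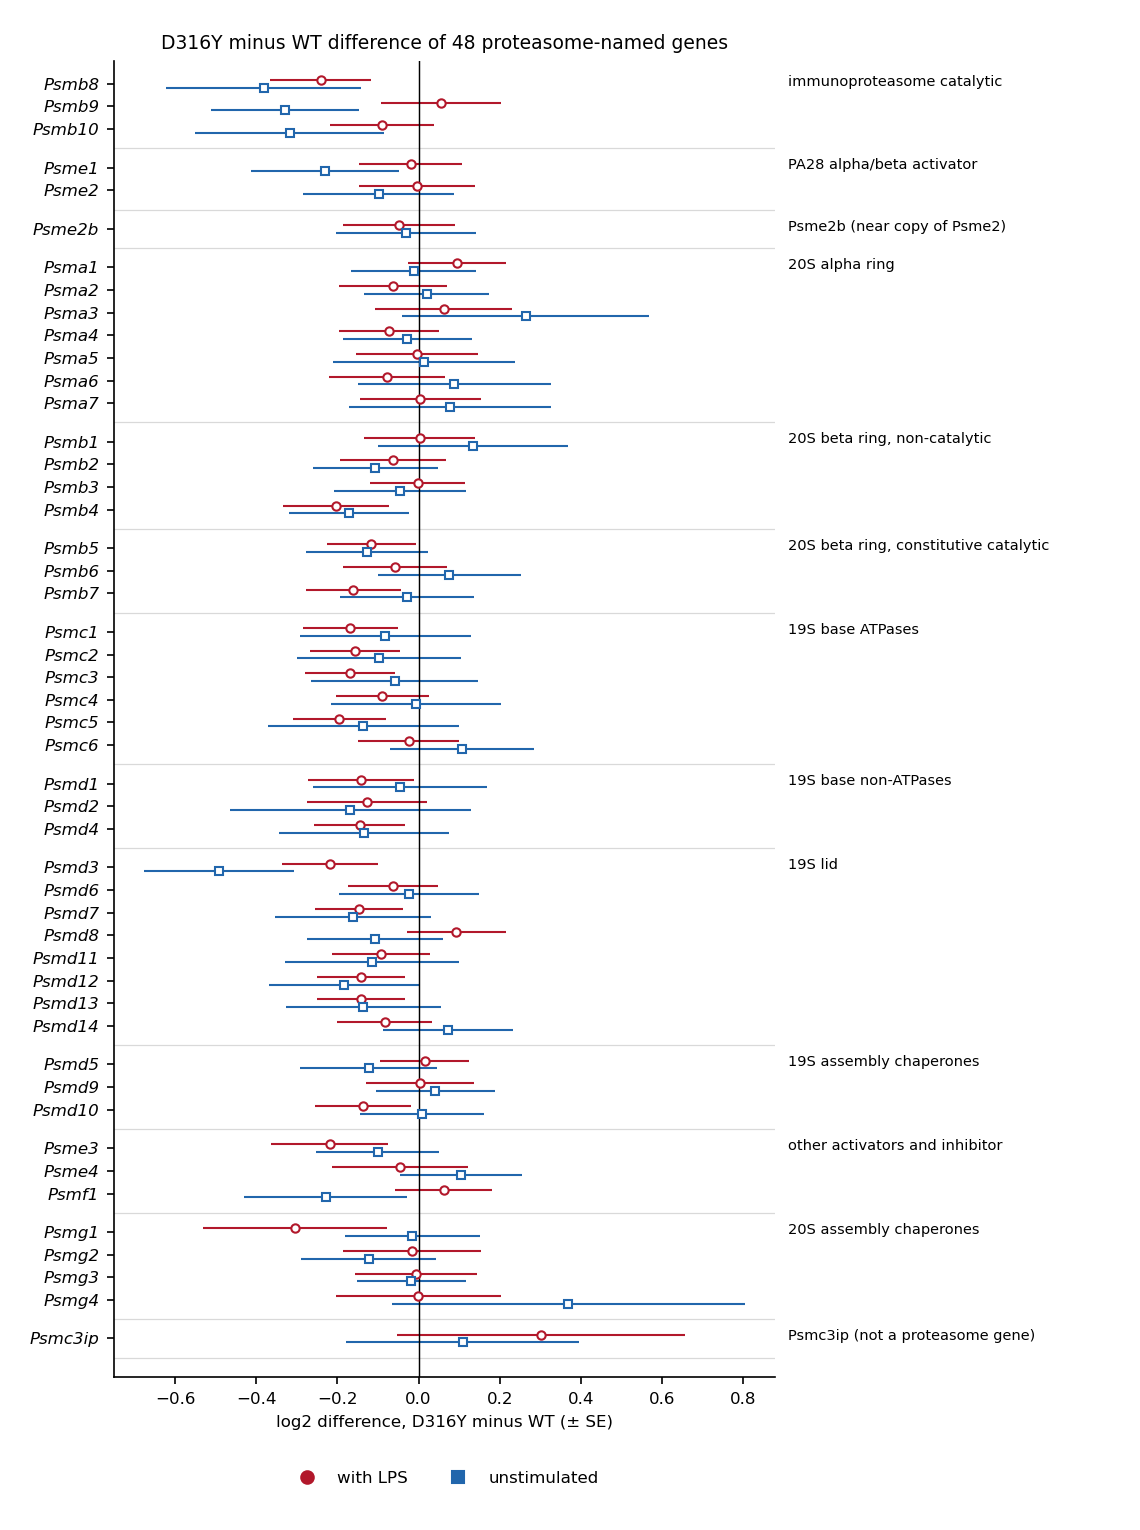
D316Y minus WT log2 difference (horizontal axis) of the 48 tested members, grouped by role, with LPS (red circles) and unstimulated (blue squares); bars are the limma standard error and open symbols did not pass the test. No symbol is filled, and with LPS 16 of the 17 members of the 19S cap lie left of 0.

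The genotypes' responses to LPS were compared with an interaction term, which called 0 of 48 members and 0 of all 11918 genes, of which 2.11% had an unadjusted p under 0.05, and no member did. The 5 interferon-inducible members all had positive interaction values, from 0.095 to 0.39, where 6160 of 11918 genes did. Their median was 0.21 against 0.010 for all genes. The smallest unadjusted p belonged to Psmb9, at 0.39 (95% interval -0.13 to 0.90, limma adjusted p = 0.999), and to Psmd3, at 0.27 (interval -0.18 to 0.73, adjusted p = 0.999). The Psmb8 interaction of 0.14 changed sign without WT unstimulated replicate 1, to -0.067, and without D316Y unstimulated replicate 2, to -0.041. That of Psme2 (0.095) was -0.031 without WT LPS replicate 1, and that of Psmb10 (0.23) was 0.042 without WT unstimulated replicate 1 and 0.061 without D316Y unstimulated replicate 2. The interaction shares its libraries with the comparisons above and is no separate evidence. None of the 5 subunit ratios passed the genotype test: Psmb8 over Psmb5 was -0.19 in D316Y minus WT (exact permutation adjusted p = 0.192), and the other 4 lay between -0.15 and 0.11 (adjusted p from 0.525 to 0.77). By treatment, Psmb9 over Psmb6 was 0.11 with LPS and -0.41 unstimulated, Psmb10 over Psmb7 0.070 with LPS and -0.29 unstimulated, and Psme1 over Psme3 0.20 with LPS and -0.13 unstimulated, differences whose change with treatment was not tested. Of the genes around the proteasome, 0 in any of the 5 lists passed a genotype comparison. Unstimulated, all 14 interferon route genes tested and all 11 class I genes were lower on average in D316Y, with medians of -0.23 and -0.41. Of all genes, 6198 of 11525 were lower. All 10 macrophage markers were lower too, with a median of -0.20, as were 4 of 7 monocyte and progenitor markers. In contrast 4 of 5 neutrophil and 4 of 5 dendritic cell markers tested were higher, with medians of 0.42 and 0.40. None of these passed, and a relation between the lists was not tested. With LPS the interferon route genes had a median of 0.029, with 10 of 15 higher in D316Y. All 11 class I genes were again lower, with a median of -0.16, where 5738 of 11306 genes were lower.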

How the data were processed

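RNA from 12 macrophage libraries was sequenced; per the submitters' processing notes STAR 2.5.1a and featureCounts 1.4.6-p5 were used beside bcl2fastq, Subread, limma and edgeR, with no step named, and the genome build is not given in the sources used here. The authors deposited log2 CPM values of all libraries in 2 tables, identical after 52 repeated identifiers were taken once, with their log2 fold changes, p-values and adjusted p-values of the genotype comparisons per the file headers. All 12441 identifiers were found in GENCODE M21, which gave positions and lengths. In every library 100% of values under 200 reads came within 0.01 of whole reads, and these recovered reads entered a voom alternative.

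The main test was limma 3.58.1 in R 4.3.3 (moderated variance with trend and robust settings, two-sided, Benjamini-Hochberg over all genes tested, genes averaging 0 log2 CPM or more in at least 1 compared group). LPS and interaction contrasts came from 1 fit of 12 libraries and genotype contrasts from 6 libraries each; both LPS contrasts and the interaction share libraries. Ratios were tested over 400 arrangements. The fit was tested on simulated data. Nearly identical copies were judged by shared 50-base stretches of annotated transcripts. No label says that same-numbered libraries are paired. The main fits were unpaired, and the replicate block was an alternative. Same-numbered unstimulated libraries of the 2 genotypes were also compared as pairs, beside the main fit. The reason was that their deviations correlated at 0.656, 0.63 and 0.2, each above 0.1. Both replicate 1 libraries have low mitochondrial shares, and the cause of the correlation was not tested. In the other comparisons at least 1 same-numbered pair was below 0.1. Values per library were named for the 5 interferon-inducible members and for Psmb5, Psmb6, Psmb7 and Psme3. In each comparison they were also named for up to 4 other members with the largest passed differences in each direction. With none passed, they were named for the 2 with the smallest unadjusted p. Psma7 and Psme2b come under this rule by their differences, and motif, lid and cap members named in counts were chosen after their values were seen. Members and lists were chosen with earlier results of these data known.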

Additional observations from a re-analysis of the deposited data

How the results depend on the processing

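No alternative reversed the direction of a member that passed. The LPS counts were 20 to 38 members higher in D316Y and 24 to 40 in WT over all alternatives, and 24 to 36 in D316Y and 27 to 36 in WT with 1 library left out, where members lower ranged from 0 to 1 in D316Y and from 1 to 2 in WT. Fits of the 6 libraries of 1 genotype called 2 lower in D316Y and 1 in WT. Passing under every alternative were 19 members in D316Y and 23 in WT. Quantile normalization lowered the median LPS difference of the constitutive members to 0.26 in D316Y and 0.35 in WT, from medians of 0.54 and 0.59. With the replicate block, 36 members were higher and 1 lower in D316Y with LPS, and 37 and 2 in WT, and 0 members passed a genotype comparison or the interaction, as under every other alternative; the block changed no genotype call. With 1 library left out, which allows fewer arrangements, the LPS shift was 0.37 to 0.52 for Psmb8 over Psmb5, 0.42 to 0.59 for Psmb9 over Psmb6 and 0.37 to 0.50 for Psmb10 over Psmb7. The Psmb8 test was lost without any D316Y LPS library or WT LPS replicate 2 or 3, and the Psmb10 test also without WT unstimulated replicate 2 or 3. The Psmb9 test passed only without D316Y unstimulated replicate 3, WT LPS replicate 1 or WT unstimulated replicate 1. The D316Y minus WT shift of Psme1 over Psme3 ranged from -0.037 to 0.11 and changed sign without D316Y LPS replicate 1 or WT LPS replicate 1. The cause of these changes was not tested. With 3 libraries a group, genotype differences of the size seen here could not be told from 0, and Psma8 was too low to test.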

Other observations

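A pseudogene, Psmb6-ps2, shares the symbol start but is not protein-coding and was not a member. It stood at 1.75, 0.98 and 1.30 log2 CPM in D316Y with LPS, against 0.70, 0.35 and 0.97 in unstimulated D316Y. In WT it stood at 1.28, 1.83 and 1.66 with LPS, against 0.49, 1.08 and 0.78 unstimulated. Of the 50-base stretches of Psmb6, 2.67% are also in this copy.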
